A study of Bos taurus with 16 samples.

Results

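The cytochrome P450 (CYP) genes were followed in precision-cut liver slices of dairy cows that had been cultured with agonists of the peroxisome proliferator-activated receptors (PPAR). Members were all genes whose symbol starts with CYP and a family number and whose read count exceeded 4 in at least 1 of 12 libraries. Of the 40 CYP rows in the table, 35 met this rule, out of 19824 genes tested. The 5 others, CYP11B1, CYP19A1, CYP26C1, CYP46A1 and CYP4A22, held at most 3 counts in any of the 12 libraries. The members belong to 15 families, of which CYP2 was the largest with 10 genes.

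The slices came from liver biopsies of primiparous Jersey cows in early lactation. Each cow gave 1 library of control slices, which the labels call untreated, and 1 library for each of 3 agonists. The PPARα agonist was WY-14643 at 100 µM, the PPARδ agonist was GW-501516 at 50 µM, and the PPARγ agonist was rosiglitazone at 100 µM. The paper states that treatments were adjusted for the vehicle DMSO at 0.8%. For its triacylglycerol assay it describes the control slices as kept in medium only. Whether the control slices sequenced here received DMSO is not settled. All slices were incubated for 18 h. The labels give 4 cows, named here by their numbers 581, 576, 567 and 574. The study removed cow 574, so that cows 581, 576 and 567 entered the tests with 3 libraries per group, and cow 574 is given as values only. Each agonist was used at 1 dose and 1 time, and the dose of GW-501516 differed from the dose of the other agonists.

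Cytochromes P450 are heme enzymes of the endoplasmic reticulum and mitochondria that insert 1 oxygen atom into their substrate, with electrons passed on by NADPH-cytochrome P450 reductase or by ferredoxin. In the hepatocyte, families CYP1 to CYP3 oxidise drugs and other foreign compounds, CYP4 hydroxylates fatty acids at the omega end, and CYP7, CYP8B1, CYP27A1 and CYP51A1 act in the synthesis of cholesterol and bile acids. CYP26 degrades retinoic acid, and CYP2R1, CYP24A1 and CYP27B1 process vitamin D. In rodents the CYP4A genes are classical targets of PPARα, and in human liver CYP3A4 is controlled by the pregnane X receptor NR1I2.

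Levels are given as CPM (counts scaled to a common library size normalized by TMM), in the order of cows 581, 576 and 567. The libraries were of the 3′ tag type, in which a transcript gives about the same number of reads whatever its length, so that CPM were compared between genes without a correction for length. Gene counts per library ranged from 3081981 to 10227330, and RN18S1, the 18S ribosomal RNA gene, took 11.9 to 63.8% of them. The share was highest in the PPARδ agonist library of cow 576, in which 15 of the 35 CYP genes had any count, against 23 to 33 in the other 11 libraries. The description field of 3 libraries (PPARα agonist of cows 581 and 567, PPARδ agonist of cow 581) carries the mark "rd", which the labels do not explain, and the gene counts of these 3 were the highest of the 12. Their RN18S1 shares (14.1, 11.9 and 16.4%) were also the lowest, with 33.1% or more in every other library. No control library carries the mark, so depth and RN18S1 share differ with the group. Tests were made with the quasi-likelihood test of edgeR without a term for the cow and again with the cow as a block. A gene was called at an adjusted p under 0.2, the threshold of the study.

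The 35 members together took a small share of the gene counts, on average 0.0477% ± 0.0140 (SD, n = 3) in control. The PPARα agonist libraries had 0.141% ± 0.0527, the PPARδ libraries 0.0852% ± 0.0210 and the PPARγ libraries 0.117% ± 0.0242. With RN18S1 left out of the total the shares were 0.0794% in control and 0.173, 0.146 and 0.178% for the PPARα, PPARδ and PPARγ agonists, which turned the order of PPARα and PPARγ. As summed CPM, the control libraries held 464, 388 and 629. The PPARα agonist libraries held 1102, 874 and 1551, those of the PPARδ agonist 1006, 1133 and 836, and those of the PPARγ agonist 982, 1417 and 976. All 9 agonist libraries thus lay above all 3 controls. CYP3A4 alone made up 19.4% ± 5.601 of the CYP sum in control and 28.7 to 35.3% on average with the agonists. Without CYP3A4 the sum in the PPARα agonist library of cow 576 was 333, between the controls (289 to 537), whereas the other 8 agonist libraries lay at 573 to 1146.

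**Figure D1:**
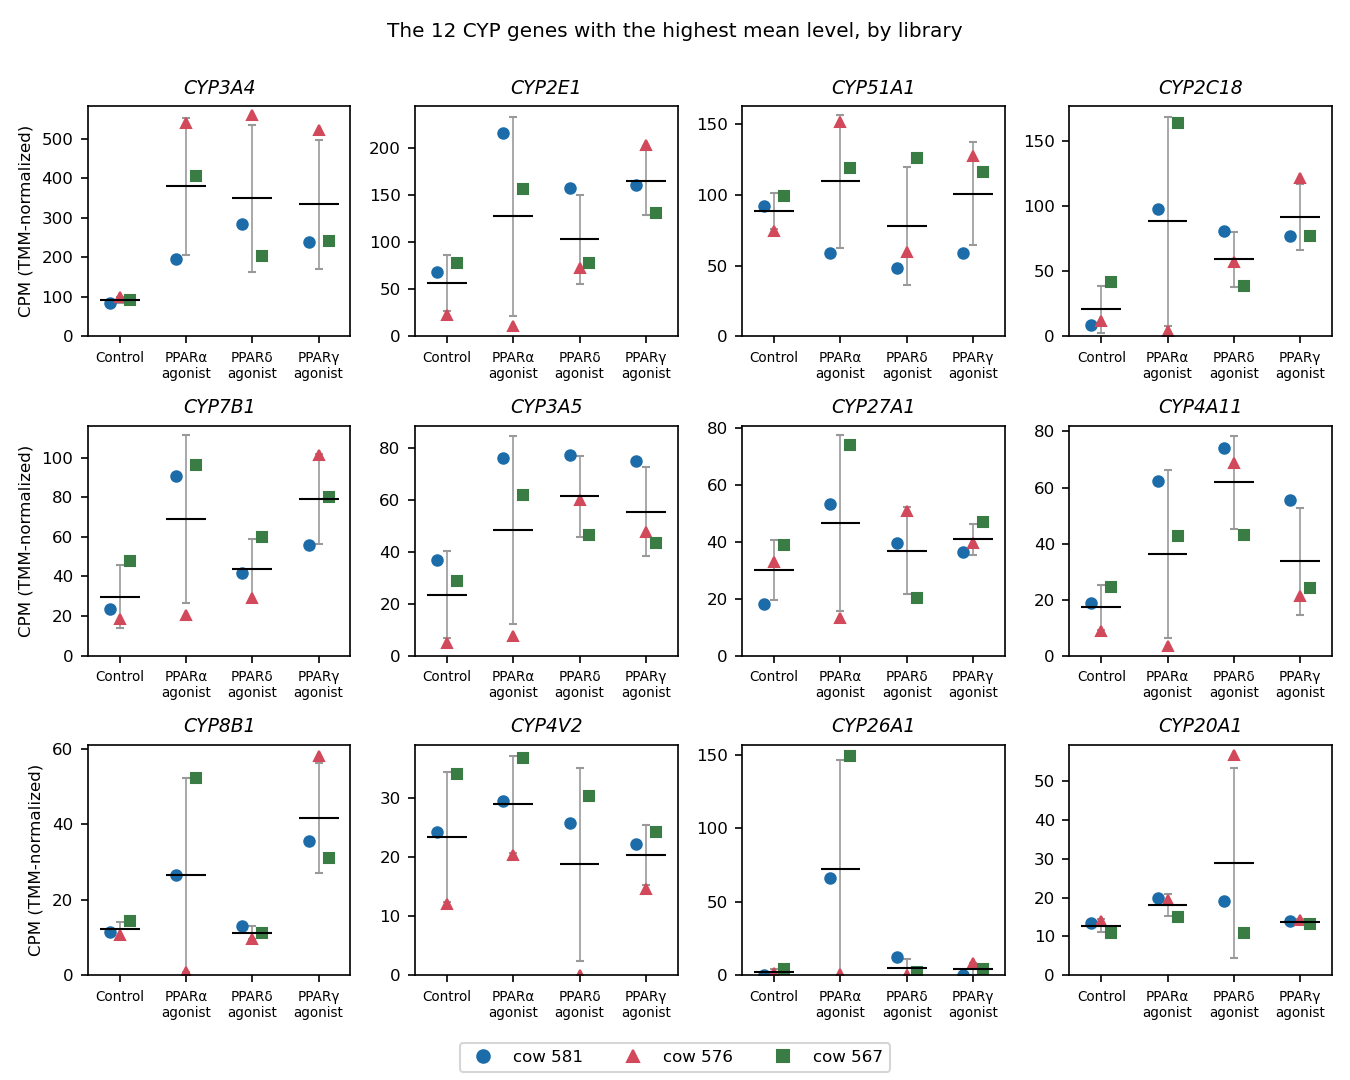
TMM-normalized CPM (linear axis) of the 12 CYP genes with the highest mean level, by group. Each point is 1 library (colour and shape give the cow), black lines are group means and grey bars the SD of 3 cows. For CYP3A4 all agonist libraries lie between 196 and 560 CPM and all controls between 84.3 and 99.1 CPM.

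In the control slices CYP3A4 and CYP51A1 had the highest levels, 91.6 ± 7.37 and 88.5 ± 12.9 CPM, which made up 18.6 and 17.9% of the mean CYP level and differed by less than their spread. CYP2E1 came next with 56.2 ± 29.6 CPM, followed by CYP27A1, CYP7B1, CYP3A5, CYP4V2, CYP2C18 and CYP4A11, with means of 17.3 to 30.05 CPM, and neighbours in this order differed by less than their spread. CYP20A1 (12.7 CPM), CYP8B1 (12.2 CPM), CYP3A24 (10.27 CPM) and CYP2D14 (10.25 CPM) were also above 10 CPM. Over the 12 libraries 18 members had a mean of at least 10 CPM. At the low end CYP17A1 and CYP4B1 were counted in 1 library each and CYP27C1 in 2, and CYP27B1 only in PPARα and PPARδ agonist libraries, so that these members passed the filter through the libraries where they were present.

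Without a term for the cow, 2 of the 35 members were called higher with the PPARα agonist (CYP3A4 and CYP26A1), and 1 each with the PPARδ and PPARγ agonists (CYP3A4 in both). Of all genes tested, 0.424, 0.252 and 0.328% were called higher. With the cow as a block, 3, 4 and 8 members were called higher, where 1.85, 1.39 and 1.58% of all genes were. No member was called lower by edgeR in either fit or by DESeq2. Among all genes, edgeR called 0.111, 0.0555 and 0.303% lower without the block and 0.837, 0.636 and 1.28% with it. DESeq2 called 0.651, 0.918 and 1.02% lower, so that 0 of 35 members was near the background. An unadjusted p under 0.05 on the lower side was reached by CYP2S1 with the PPARγ agonist without the block and by CYP2C87 with the PPARδ agonist with it. Without the control of cow 581 no member was called for any agonist without the block, and 2, 2 and 4 were with it. Without the PPARα agonist library of cow 567 the count for this agonist was 1 in both fits, without the PPARδ agonist library of cow 567 that of the PPARδ agonist was 7 with the block, and without the PPARγ agonist library of cow 576 that of the PPARγ agonist was 0 and 2. The control of cow 576 also moved 2 counts, to 1 for the PPARα agonist without the block and to 4 for the PPARγ agonist with it, and without either the control or the PPARγ agonist library of cow 567 the latter agonist had 2 calls without the block. The share of all genes called in these refits is not given beside the counts, so that they are a description. The 3 cows are the same in each group, so the block follows the design. The median log2 fold change of the 35 members was 0.72, 0.55 and 0.85 with the PPARα, PPARδ and PPARγ agonists, against 0.12, 0.00 and 0.08 over all genes, and 0.50, 0.26 and 0.50 when members without counts in 1 group were set at their bounds. The list of 16 hepatocyte markers moved in the same direction, with medians of 0.93, 0.41 and 0.57; its part in the CYP values was not tested, and fewer cells of a type cannot be told apart from less RNA per cell in whole slices.

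The cows differed. The 18 members at 10 CPM or more were taken by their mean over all 12 libraries, and 5 of them (CYP26A1, CYP2C87, CYP2C19, CYP4F2 and CYP1A2) were below 10 CPM in control, so that counts over them are a description. Among the 18 members at 10 CPM or more, the PPARα agonist library was above the own control of the cow for 16 genes in cow 581 and for 16 in cow 567, but for 8 in cow 576, where the median log2 ratio (1 CPM added) was -0.57. With the PPARα agonist the median ratios of these members were 1.24, -0.57 and 0.90 in cows 581, 576 and 567. The hepatocyte markers had 1.13, -0.15 and 1.00, and all genes at 10 CPM or more 0.24, 0.06 and 0.19. The PPARγ agonist library was higher for 16, 18 and 14 genes and the PPARδ agonist library for 16, 12 and 11. For these 2 agonists the medians over all genes at that level lay between -0.14 and 0.25. The PPARα agonist library of cow 576 was the lowest of the 12 libraries for 7 of these 18 genes. In that library the summed level of the hepatocyte markers was also the lowest (2532 CPM, against 2899 to 14849 in the others), and that of 5 neutrophil markers was 1905 CPM, against 11.5 to 73.4 CPM in the other 11. Leaving out cow 576 raised the members called with the PPARα agonist to 11, and leaving out only this library to 9 without the block and 8 with it. The share of all genes called in the same refits is not set beside these counts. Whether the gain is particular to the CYP genes was therefore not tested.

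**Figure D2:**
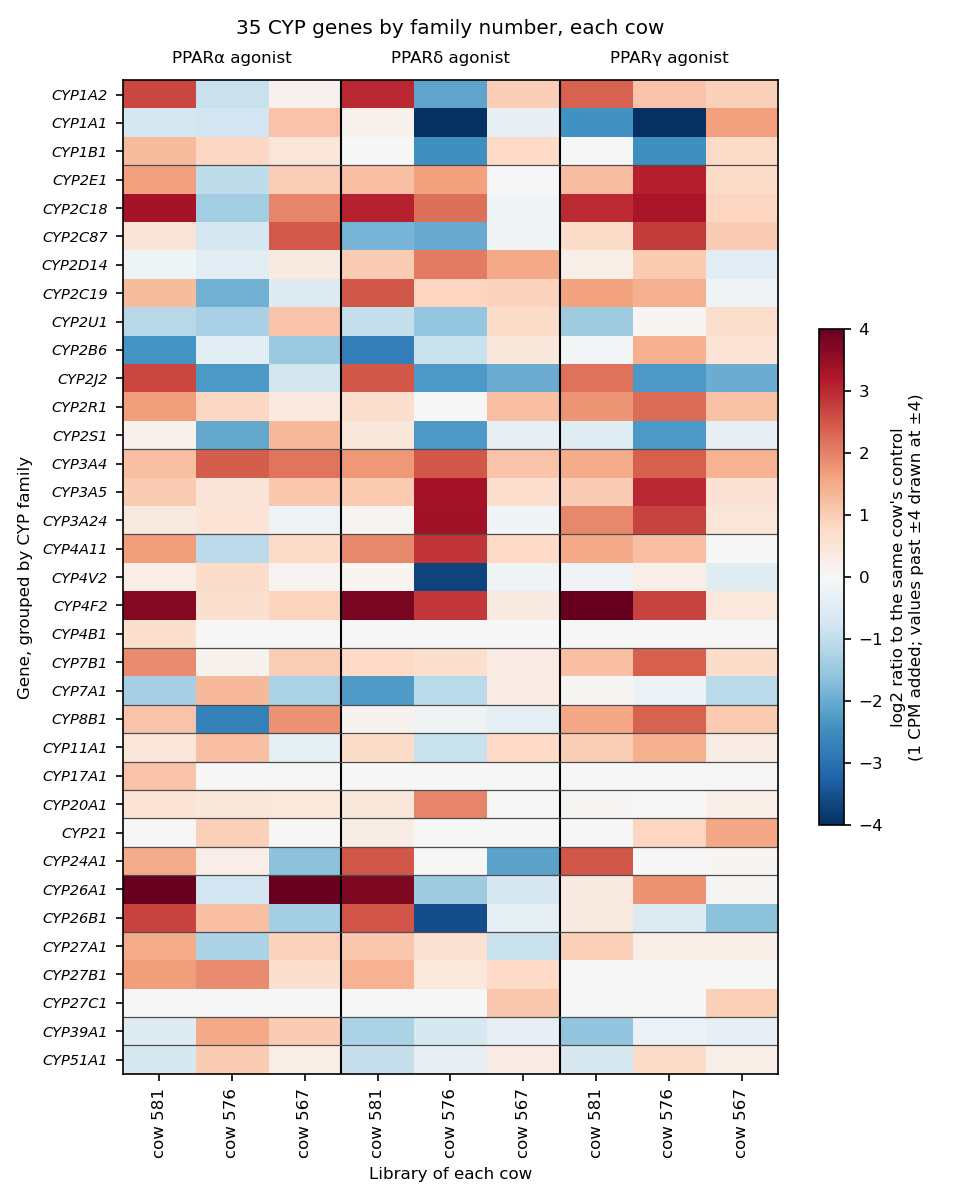
Log2 ratio of each agonist library to the control library of the same cow (colour, 1 CPM added, values past 4 drawn at 4) for 35 CYP genes, grouped by family number, in 9 libraries. CYP3A4 is above control in all 9 libraries, from 1.15 to 2.49, and CYP26A1 reaches 6.07 and 4.87 with the PPARα agonist in cows 581 and 567 but -0.77 in cow 576.

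CYP3A4, which in human liver oxidises the widest range of drugs, was the member with the clearest difference. Its level was 84.3, 99.1 and 91.3 CPM in control. It was 196, 541 and 405 CPM with the PPARα agonist, 285, 560 and 204 CPM with the PPARδ agonist and 239, 522 and 242 CPM with the PPARγ agonist. No agonist library overlapped with the controls, and cow 576 had the highest level with every agonist. The gene rose by a log2 fold change of 2.05 (SE 0.41, adjusted p = 0.0251), 1.93 (SE 0.41, adjusted p = 0.0464) and 1.87 (SE 0.41, adjusted p = 0.0359). With the cow as a block the values were 1.95, 1.81 and 1.75, and all 9 fits that left out 1 library or 1 cow kept the call for each agonist (adjusted p up to 0.0262). Without the block the call was lost for each agonist when the control of cow 581, the shallowest library, was left out (adjusted p = 0.414, 0.429 and 0.330), and for the PPARγ agonist also without its library of cow 576 (adjusted p = 0.272).

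Set against the summed hepatocyte markers, CYP3A4 stood at 1.86, 3.42 and 1.18% of that sum in control. It was 3.66, 6.98 and 3.48% with the PPARδ agonist and 2.66, 5.26 and 3.76% with the PPARγ agonist, higher than in the own control of each cow. With the PPARα agonist it was 1.503, 21.4 and 2.73%, and so lower than control in cow 581. Reads were assigned under the symbol CYP3A4, which RefSeq lists as a synonym of the bovine genes CYP3A28 and CYP3A74. CYP3A28 is also given for CYP3A5, so that the reads of these genes may be split between rows.

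The other CYP3A genes had lower levels. CYP3A5 stood at 37.0, 5.02 and 28.6 CPM in control, at 77.5, 60.1 and 46.5 CPM with the PPARδ agonist and at 75.1, 47.6 and 43.6 CPM with the PPARγ agonist. All 6 of these agonist libraries were above the controls, and the control of cow 576 was the lowest of the 12 libraries. The gene was called with the block (log2 fold change 1.74, SE 0.47, adjusted p = 0.0327 and 1.55, SE 0.47, adjusted p = 0.0609) and not without it (adjusted p = 0.589 and 0.720). Both calls were lost without the control of cow 576 (adjusted p = 0.515 and 0.563) or the agonist library of that cow (adjusted p = 0.321 and 0.919). In the PPARα agonist libraries CYP3A5 held 76.1, 7.63 and 61.9 CPM and was not called. CYP3A24 held 11.5, 1.40 and 17.9 CPM in control, 15.1, 2.48 and 16.1 CPM with the PPARα agonist, 12.2, 23.4 and 16.4 CPM with the PPARδ agonist and 46.5, 14.7 and 25.5 CPM with the PPARγ agonist, and overlapped with control for each.

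Of the CYP2 family, CYP2C18 (a CYP2C enzyme listed by RefSeq as CYP2C90 in cattle) had 8.75, 11.7 and 41.6 CPM in control. With the PPARγ agonist it had 76.8, 121 and 76.7 CPM, all above control, and with the PPARδ agonist 81.0, 57.1 and 38.9 CPM. With the PPARα agonist it had 97.3, 3.815 and 163 CPM, the highest and the lowest values of the 12 libraries. It was called for all 3 agonists with the cow as a block, with log2 fold changes of 1.99 (SE 0.43, adjusted p = 0.00109), 1.79 (SE 0.44, adjusted p = 0.00839) and 2.47 (SE 0.44, adjusted p = 1.26e-05) for the PPARα, PPARδ and PPARγ agonists. Without the block the adjusted p were 0.282, 0.588 and 0.260. The call for the PPARγ agonist was kept in all 9 blocked fits that left out a library or a cow (adjusted p up to 0.157), whereas that for the PPARδ agonist was lost without the control of cow 581 (adjusted p = 0.611), as was that for the PPARα agonist (adjusted p = 0.446), which was also lost without the PPARα agonist library of cow 581 (adjusted p = 0.363) or of cow 567 (adjusted p = 1). As a share of the hepatocyte marker sum, CYP2C18 was 0.193 to 0.536% in control, 0.664 to 1.04% with the PPARδ agonist, 0.854 to 1.22% with the PPARγ agonist and 0.151 to 1.10% with the PPARα agonist.

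CYP2E1, which oxidises ethanol and ketones such as acetone, held 68.0, 22.6 and 78.1 CPM in control. The PPARγ agonist libraries held 161, 203 and 131 CPM and did not overlap with control. The log2 fold change was 1.89 with the block (SE 0.39, adjusted p = 0.000308) and 1.55 without it (SE 0.55, adjusted p = 0.454), and the call with the block was lost without the PPARγ agonist library of cow 576 (adjusted p = 0.871). The PPARα agonist levels were 216, 10.7 and 156 CPM and with the PPARδ agonist 158, 72.9 and 78.2 CPM. Neither passed the test, with adjusted p of 0.245 and 0.332 under the block.

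CYP2C87, another bovine CYP2C gene, held 5.57, 3.07 and 14.9 CPM in control and 10.0, 27.1 and 31.2 CPM with the PPARγ agonist, for which it was called with the block (log2 fold change 2.12, SE 0.77, adjusted p = 0.198). The call was kept in 1 of the 9 blocked fits that left out a library or a cow. The PPARα agonist libraries held 8.46, 1.53 and 87.0 CPM and those of the PPARδ agonist 0.803, 0 and 13.6 CPM. CYP2D14, a bovine member of the CYP2D subfamily of drug-oxidising enzymes, held 9.95, 10.0 and 10.8 CPM in control and 21.1, 45.9 and 32.7 CPM with the PPARδ agonist, without overlap. It was not called by edgeR (adjusted p = 0.541, and 0.471 with the block) but was by DESeq2 (adjusted p = 0.128). CYP2D14 with the PPARα agonist had 8.62, 7.06 and 14.1 CPM and with the PPARγ agonist 11.9, 21.9 and 7.62 CPM. The levels of CYP2C19 ranged from 0.954 to 29.7 CPM over the 12 libraries and those of CYP2B6 from 0 to 7.16 CPM, and neither was called. With the PPARα agonist CYP2B6 held 0.569, 0.381 and 0.400 CPM, all below the 7.16, 0.837 and 2.94 CPM of the controls. Its log2 fold change there was -2.94 (SE 1.69, adjusted p = 0.648 by edgeR without the block).

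The CYP1 genes, which oxidise aromatic compounds and are targets of the aryl hydrocarbon receptor AHR, were low and not called. CYP1A2 held 2.39, 3.35 and 9.05 CPM in control, 20.7, 1.34 and 10.2 CPM with the PPARα agonist, 26.2, 0 and 18.7 CPM with the PPARδ agonist and 16.2, 8.55 and 18.3 CPM with the PPARγ agonist. Each group of agonist libraries overlapped with the controls. CYP1A1 ranged from 0 to 22.05 CPM, its highest value being the control of cow 576, and CYP1B1 from 0 to 8.77 CPM.

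**Figure D3:**
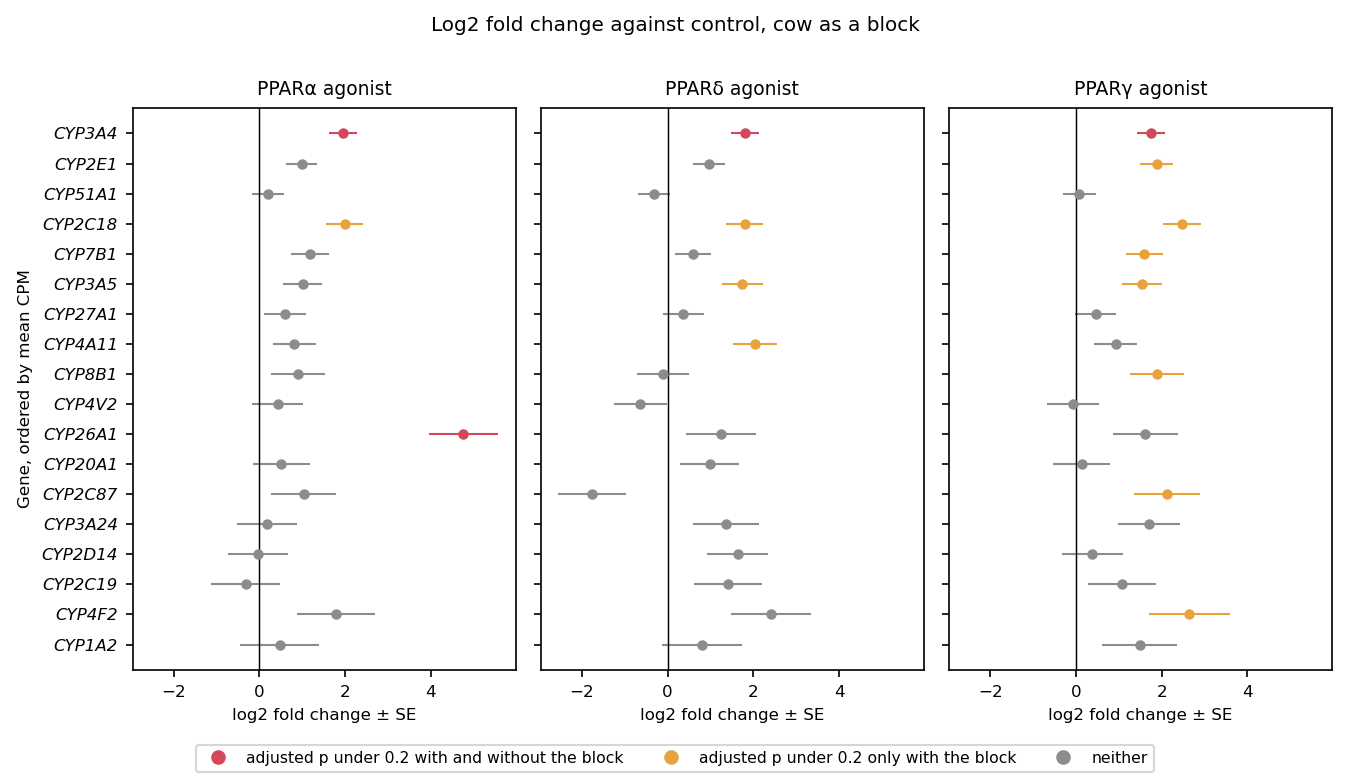
Log2 fold change against control (points) with its SE (bars) in the edgeR fit with the cow as a block, for the 18 CYP genes with a mean of at least 10 CPM and 3 agonists. CYP3A4 is called with and without the block for each agonist (1.95, 1.81 and 1.75), as is CYP26A1 for the PPARα agonist (4.76), and the orange points are called by edgeR only with the block.

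The fatty acid hydroxylases of family CYP4 were led by CYP4A11, an omega-hydroxylase. Its levels were 18.7, 8.65 and 24.5 CPM in control and 73.9, 68.6 and 43.1 CPM with the PPARδ agonist, without overlap. It was called for the PPARδ agonist with the block (log2 fold change 2.03, SE 0.52, adjusted p = 0.0155) and not without it (1.84, SE 0.62, adjusted p = 0.427), and the blocked call was lost without the control of cow 581 (adjusted p = 0.285) or the PPARδ agonist library of cow 576 (adjusted p = 0.348). With the PPARα agonist CYP4A11 held 62.4, 3.62 and 42.8 CPM and with the PPARγ agonist 55.7, 21.1 and 24.3 CPM, and it was called for neither (adjusted p = 0.728 and 0.711 with the block). As a share of the hepatocyte marker sum, CYP4A11 was 0.298 to 0.412% in control and 0.735 to 0.952% with the PPARδ agonist. The other CYP4A gene of the table, CYP4A22, held 3 counts in 1 of the 12 libraries.

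CYP4F2, which in humans hydroxylates leukotriene B4 and the side chain of vitamin K, held 0, 2.79 and 5.63 CPM in control. It was above this range with the PPARδ agonist (13.0, 26.1 and 7.56 CPM) and with the PPARγ agonist (21.4, 23.9 and 7.86 CPM), while the PPARα agonist libraries held 11.9, 4.96 and 11.3 CPM. For the PPARγ agonist the log2 fold change was 2.64 with the block (SE 0.95, adjusted p = 0.189) and 2.61 without it (adjusted p = 0.454), and the call was lost in 7 of the 9 blocked fits without a library or a cow. DESeq2 called CYP4F2 for the PPARγ agonist (adjusted p = 0.125) and for the PPARδ agonist (adjusted p = 0.169). CYP4V2, an omega-hydroxylase of many tissues, held 24.3, 12.0 and 34.0 CPM in control, 29.4, 20.4 and 36.8 CPM with the PPARα agonist, 25.8, 0 and 30.4 CPM with the PPARδ agonist and 22.2, 14.5 and 24.3 CPM with the PPARγ agonist. These ranges overlapped, and the log2 fold changes lay between -0.31 and 0.30. CYP2U1 and CYP2J2, which also act on fatty acids, were at 0 to 8.79 and 0 to 5.37 CPM and were not called, nor was CYP4B1.

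Among the genes of bile acid and sterol synthesis, CYP7B1, the 7α-hydroxylase of oxysterols, held 23.5, 18.4 and 47.7 CPM in control and 55.7, 101 and 80.0 CPM with the PPARγ agonist. All 3 PPARγ agonist libraries were above control, and the gene was called with the block (log2 fold change 1.60, SE 0.44, adjusted p = 0.0252) but not without it (1.40, SE 0.50, adjusted p = 0.455). The blocked call was lost without the PPARγ agonist library of cow 576 (adjusted p = 1) and missed the threshold without the control of cow 581 (adjusted p = 0.205). With the PPARα agonist CYP7B1 had 90.5, 20.4 and 96.3 CPM (adjusted p = 0.220 with the block), and with the PPARδ agonist 41.6, 29.4 and 60.1 CPM.

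CYP8B1, the sterol 12α-hydroxylase that leads to cholic acid, had 11.5, 10.6 and 14.4 CPM in control and 35.7, 58.2 and 31.2 CPM with the PPARγ agonist, without overlap. It was called for the PPARγ agonist with the block (log2 fold change 1.90, SE 0.63, adjusted p = 0.115) and not without it (1.77, SE 0.73, adjusted p = 0.619), and 7 of the 9 blocked fits without a library or a cow lost the call. The PPARδ agonist libraries stayed near control with 13.0, 9.57 and 11.1 CPM, and those of the PPARα agonist spread from 0.763 CPM in cow 576 to 26.6 CPM in cow 581 and 52.4 CPM in cow 567.

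CYP51A1, the lanosterol demethylase of cholesterol synthesis, was among the most abundant members and was called for no agonist. It held 92.3, 74.2 and 99.1 CPM in control, 59.0, 152 and 119 CPM with the PPARα agonist, 48.3, 59.4 and 126 CPM with the PPARδ agonist and 59.2, 127 and 116 CPM with the PPARγ agonist. Its log2 fold changes were 0.31 (SE 0.43), -0.19 (SE 0.43) and 0.19 (SE 0.43), with cow 581 below its control for each agonist. CYP27A1, the mitochondrial sterol 27-hydroxylase, held 18.3, 32.9 and 38.9 CPM in control, 53.3, 13.2 and 74.1 CPM with the PPARα agonist, 39.7, 50.8 and 20.4 CPM with the PPARδ agonist and 36.5, 39.5 and 46.9 CPM with the PPARγ agonist. It was not called (log2 fold changes 0.64, 0.29 and 0.44, SE 0.53 for each).

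CYP7A1, the rate-limiting enzyme of bile acid synthesis, was low. Its levels were 4.38, 1.12 and 5.63 CPM in control, 1.14, 4.196 and 1.76 CPM with the PPARα agonist, 0.115, 0 and 7.37 CPM with the PPARδ agonist and 4.59, 0.807 and 2.14 CPM with the PPARγ agonist. Its log2 fold changes were -0.66, -0.56 and -0.57 with SE of 1.60 to 1.61, so that a difference was not detectable at this depth. CYP39A1, the 7α-hydroxylase of 24-hydroxycholesterol, was lower still, with 3.58, 0.558 and 0.245 CPM in control, 2.20, 3.43 and 1.52 CPM with the PPARα agonist, 0.918, 0 and 0 CPM with the PPARδ agonist and 0.541, 0.323 and 0 CPM with the PPARγ agonist, and was not called.

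CYP26A1, which clears retinoic acid in the liver, had the most uneven pattern. It was at 0, 1.67 and 4.16 CPM in control. With the PPARα agonist it reached 66.3 CPM in cow 581 and 149 CPM in cow 567, while cow 576 stood at 0.572 CPM. The PPARδ agonist libraries held 12.2, 0 and 2.27 CPM and those of the PPARγ agonist 0.270, 8.39 and 4.29 CPM. The gene was called for the PPARα agonist without the block (log2 fold change 5.13, SE 1.19, adjusted p = 0.0769) and with it (4.76, SE 0.81, adjusted p = 2.88e-06), but not by DESeq2 (adjusted p = 0.249). The 3 libraries with the highest CYP26A1 levels were the 3 that carry the unexplained mark. Without these 3, the PPARα agonist rested on cow 576 alone and the log2 fold change was -1.70, with the lone library assumed to vary like the other groups. Without the block the call was lost when the control of cow 581 (adjusted p = 0.591), the control of cow 576 (adjusted p = 0.343) or the PPARα agonist library of cow 567 (adjusted p = 0.202) was left out, and with the block when the last of these was (adjusted p = 1).

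CYP26B1, the second retinoic acid hydroxylase, ranged from 0 to 25.6 CPM and had its highest level in the PPARα agonist library of cow 576, where CYP26A1 was near 0. CYP24A1, the vitamin D 24-hydroxylase, held 0, 0 and 5.14 CPM in control, 1.79, 0.191 and 0.959 CPM with the PPARα agonist, 4.59, 0 and 0.378 CPM with the PPARδ agonist and 4.59, 0 and 5.48 CPM with the PPARγ agonist. CYP27B1, which makes the active form of vitamin D, had no count in the control and PPARγ agonist libraries. It had 48 counts over the 3 PPARα agonist libraries (2.20, 2.67 and 0.559 CPM) and 19 over those of the PPARδ agonist (1.61, 0.330 and 0.756 CPM). Against a floor of 3 counts over the control group these levels were at least 5.42-fold and at least 3.79-fold higher, and neither was called by edgeR (adjusted p = 0.625 and 0.651). CYP2R1, the vitamin D 25-hydroxylase, ranged from 0 to 4.16 CPM and CYP27C1 was at 1.13 CPM at most.

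The steroid hormone genes were near the limit of detection. CYP11A1, which cleaves the side chain of cholesterol, held 2.39, 0.837 and 3.67 CPM in control, 3.74, 3.24 and 2.64 CPM with the PPARα agonist, 4.59, 0 and 7.18 CPM with the PPARδ agonist and 5.68, 3.87 and 4.76 CPM with the PPARγ agonist. The last of these groups was above control without being called (adjusted p = 0.944). CYP21, the 21-hydroxylase gene CYP21A2 of RefSeq, had 0 counts in control and 5, 2 and 13 counts over the 3 libraries of the PPARα, PPARδ and PPARγ agonists, at most 1.91 CPM in a library. CYP17A1 was counted only in the PPARα agonist library of cow 581 (15 counts, 1.22 CPM).

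Of the genes with a less defined substrate, CYP20A1 varied little outside 1 library, at 13.5, 14.0 and 10.8 CPM in control, 20.0, 19.3 and 14.9 CPM with the PPARα agonist, 19.1, 56.8 and 10.96 CPM with the PPARδ agonist and 14.1, 14.2 and 13.1 CPM with the PPARγ agonist. The 3 PPARα agonist libraries were above the controls but not called (log2 fold change 0.50, SE 0.65, adjusted p = 0.856). CYP2S1 held 16 counts over the controls and none over the PPARγ agonist libraries, at least 7.38-fold lower with the group floor of 3 counts, which was not called (adjusted p = 0.726).

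Of the 35 members, 3 (PPARα agonist), 6 (PPARδ agonist) and 9 (PPARγ agonist) had all 3 agonist libraries above all 3 controls. Over all genes tested the shares were 9.33, 4.59 and 8.7%, so that the count for the PPARα agonist (8.57% of the members) was near the background. The members for the PPARα agonist were CYP3A4, CYP20A1 and CYP27B1. For the PPARδ agonist they were CYP3A4, CYP3A5, CYP4A11, CYP4F2, CYP2D14 and CYP27B1. CYP27B1 had 0 counts in control and passed the filter through the PPARα and PPARδ agonist libraries, so that it could differ from control only upward. Its place is therefore no separate result, and its PPARδ agonist libraries held 14, 1 and 4 counts. For the PPARγ agonist they were CYP3A4, CYP3A5, CYP2C18, CYP2E1, CYP4F2, CYP7B1, CYP8B1, CYP2R1 and CYP11A1. On the lower side 1, 0 and 1 members had all 3 agonist libraries below all 3 controls (CYP2B6 with the PPARα agonist and CYP2S1 with the PPARγ agonist). These were 2.86, 0 and 2.86% of the members, against 4.73, 4.77 and 6.01% of all genes. The 3 agonists share their control libraries, so the counts are not independent.

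The agonists were also compared with each other, in 3 comparisons of 35 members each, with the PPARδ agonist at 50 µM and the others at 100 µM. Without the block no member was called by edgeR in any of them, where 0.338% (PPARγ against PPARα agonist), 0.0757% (PPARγ against PPARδ agonist) and 0.156% (PPARδ against PPARα agonist) of all genes were. In the same fit 2, 2 and 4 members had an unadjusted p under 0.05. The share of all genes at that p is not set beside these counts, so that they cannot be read as a difference. DESeq2 called 0, 0 and 1, the last being CYP2D14, higher with the PPARδ than with the PPARα agonist (adjusted p = 0.101). With the cow as a block the calls were 1, 1 and 2 members, against 1.27, 0.57 and 1.16% of all genes. CYP26A1 was lower with the PPARγ and with the PPARδ agonist than with the PPARα agonist (log2 fold changes -3.14, SE 0.88, adjusted p = 0.0524 and -3.52, SE 0.72, adjusted p = 0.0007). CYP2C87 was higher with the PPARγ than with the PPARδ agonist (3.89, SE 0.85, adjusted p = 0.00367) and lower with the PPARδ than with the PPARα agonist (-2.79, SE 0.75, adjusted p = 0.0397).

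Each of these calls depended on single libraries. The CYP26A1 difference between the PPARγ and PPARα agonists was lost without the library of cow 581 or cow 567 of either agonist (adjusted p = 0.659 to 1). Both differences between the PPARδ and PPARα agonists were lost without the PPARα agonist library of cow 581 (adjusted p = 0.897 for CYP26A1 and 0.268 for CYP2C87) or of cow 567 (adjusted p = 1 for both). The CYP2C87 difference between the PPARγ and PPARδ agonists was lost without the PPARγ agonist library of cow 576 (adjusted p = 0.801). For CYP3A4 the differences between agonists were small beside their SE of 0.39, with log2 values of -0.19 (PPARγ against PPARα), -0.06 (PPARγ against PPARδ) and -0.12 (PPARδ against PPARα), and none was called. For CYP4A11 and CYP8B1, which were called for 1 agonist with the block, no difference between agonists was called (CYP8B1, PPARγ against PPARδ agonist, log2 2.00, SE 0.63, adjusted p = 0.226 with the block).

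Genes linked to the P450 enzymes were examined as a list of 14 partners, mainly of electron transfer and heme turnover. The list also held the epoxide hydrolases EPHX1 and EPHX2, and PTGIS and TBXAS1. The last 2 are P450 enzymes whose symbols do not start with CYP, so that they were not counted as members. HMOX1, the heme oxygenase that degrades heme, was the only partner that edgeR called. DESeq2 also called CYB5A, cytochrome b5, which passes electrons to some P450 enzymes, lower with the PPARα agonist (adjusted p = 0.173). Its 188, 132 and 237 CPM lay below the 307 to 364 CPM of the controls, and edgeR gave an adjusted p of 0.556 without the block and 0.201 with it. The PPARδ agonist libraries (253, 169 and 297 CPM) also lay below the controls but were not called. With the PPARγ agonist CYB5A held 361, 282 and 404 CPM. The levels of HMOX1 were 1410, 753 and 530 CPM in control, 153, 433 and 58.1 CPM with the PPARα agonist, 329, 391 and 447 CPM with the PPARδ agonist and 279, 198 and 219 CPM with the PPARγ agonist, all 9 below the controls. It fell by 2.07 (SE 0.44, adjusted p = 0.0484) and 1.95 (SE 0.44, adjusted p = 0.0501) on the log2 scale with the PPARα and PPARγ agonists, and with the PPARδ agonist it was called only with the block (-1.09, SE 0.31, adjusted p = 0.0432). POR, the P450 reductase that gives electrons to the microsomal members, held 34.6, 41.9 and 22.8 CPM in control and 11.4 to 41.0 CPM with the agonists, and was not called (log2 fold changes 0.09, -0.52 and -0.60, SE 0.54 to 0.55).

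A list of 21 transcription factors known to regulate P450 genes was also tested. PROX1, a homeobox repressor of CYP7A1, held 1716, 683 and 690 CPM in control, 123, 298 and 131 CPM with the PPARα agonist, 136, 253 and 469 CPM with the PPARδ agonist and 692, 573 and 448 CPM with the PPARγ agonist. It fell with the PPARα and PPARδ agonists (log2 fold changes -2.48, SE 0.42, adjusted p = 0.0112 and -1.85, SE 0.42, adjusted p = 0.0731), and with the PPARγ agonist it was called only with the block (-0.85, SE 0.30, adjusted p = 0.160). ONECUT1, a hepatocyte homeobox factor, held 2.39, 3.91 and 7.59 CPM in control and 26.8, 37.4 and 25.7 CPM with the PPARγ agonist, for which it rose (log2 fold change 2.67, SE 0.75, adjusted p = 0.175). With the PPARδ agonist it held 11.8, 29.4 and 12.7 CPM, also all above control, and was called by DESeq2 (adjusted p = 0.178) and not by edgeR (log2 fold change 1.93, SE 0.74, adjusted p = 0.512, and 0.297 with the block). Its levels with the PPARα agonist were 13.1, 4.01 and 20.6 CPM, and it was not called.

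NR1H3, the oxysterol receptor LXRα, held 86.3, 52.5 and 56.5 CPM in control and 24.1, 15.2 and 34.8 CPM with the PPARδ agonist, and was called lower there by edgeR with the block (-1.40, SE 0.45, adjusted p = 0.128) and not without it (adjusted p = 0.413), and by DESeq2 without the block (adjusted p = 0.0886). The receptors that control the xenobiotic families were low. The pregnane X receptor NR1I2 held 3.58, 5.02 and 8.08 CPM in control and 0 to 7.74 CPM with the agonists, the constitutive androstane receptor NR1I3 0 to 2.45 CPM over the 12 libraries and AHR 0 to 15.0 CPM. PPARA held 16.3 to 46.5 CPM in control and 12.0 to 24.4 CPM with the agonists, and the bile acid receptor NR1H4 2.23 to 19.1 and 2.48 to 52.6 CPM. None of these 5 was called for any agonist.

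**Figure D4:**
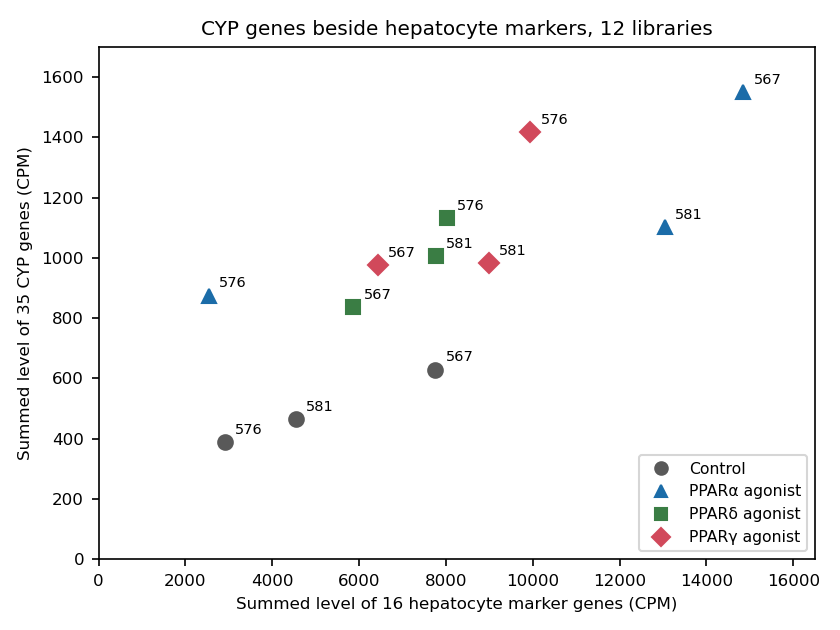
Summed CPM of the 35 CYP genes (vertical axis) against the summed CPM of 16 hepatocyte marker genes (horizontal axis) in the 12 libraries, 1 point per library with the number of its cow. The controls lie at 388 to 629 CPM of CYP genes and the agonist libraries at 836 to 1551 CPM, while the hepatocyte sums of controls (2899 to 7757 CPM) and agonist libraries (2532 to 14849 CPM) overlap.

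Marker genes of the cells in a liver slice moved with the groups. All 16 hepatocyte markers were above 0 in 11 libraries, and 1 was at 0 in a PPARδ agonist library. The hepatocyte sums were 2899 to 7757 CPM in control, 2532 to 14849 CPM with the PPARα agonist, 5862 to 8019 CPM with the PPARδ agonist and 6432 to 9937 CPM with the PPARγ agonist. The sum of 10 Kupffer cell and macrophage markers was 470 to 977 CPM in control, 280 to 464 CPM with the PPARα agonist, 76.9 to 309 CPM with the PPARδ agonist and 113 to 225 CPM with the PPARγ agonist. That of 8 lymphocyte markers was 62.5 to 70.0 CPM in control and, in the same order of agonists, 21.8 to 50.7, 16.2 to 26.4 and 11.6 to 16.1 CPM. Without the block 1, 2 and 1 of the macrophage markers were called lower (CD5L, C1QA with CD5L, and C1QA) and 1, 0 and 1 of the hepatocyte markers higher (AHSG). With it 1, 5 and 5 macrophage markers were lower, and 5, 5 and 7 hepatocyte markers were higher and 1, 1 and 0 lower. In both fits S100A8, S100A9 and S100A12 of the neutrophil list were higher with the PPARα agonist, and DCN of the fibroblast list was lower with the PPARγ agonist. With the block 2, 1 and 3 endothelial markers were also lower, as were COL3A1 and NKG7 with the PPARγ agonist. The shares of all genes called are those given with the CYP calls. In the PPARδ agonist library of cow 576, 5 of the macrophage markers were at 0. The sum of 10 endothelial markers was 454 to 709 CPM in control, 223 to 578, 409 to 488 and 180 to 261 CPM with the agonists, and that of 8 stellate cell and fibroblast markers 339 to 1220 CPM in control, 289 to 2773, 316 to 414 and 127 to 220 CPM. The part of these cell types in the CYP values was not tested. Relative to the hepatocyte sum, some members did not overlap with control and others did. CYP2E1 stood at 0.780 to 1.4999% of it in control and 1.79 to 2.05% with the PPARγ agonist, and CYP8B1 at 0.186 to 0.366% and 0.397 to 0.586%. For CYP3A5 (0.173 to 0.816% and 0.479 to 0.836%) and CYP7B1 (0.517 to 0.635% and 0.619 to 1.24%) the ranges of control and PPARγ agonist overlapped.

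In cow 574, which had 772012 to 970406 gene counts per library, the CYP genes took 0.0726 to 0.108% of the counts. Of its reads 79.6 to 84.3% fell in no gene, against 29.1 to 54.1% in the other 12 libraries. With the low RNA integrity of the removed animal, this limits what its counts can show. CYP3A4 had 33 counts in control and 41, 50 and 7 counts with the PPARα, PPARδ and PPARγ agonists. CYP26A1 had 0, 2, 0 and 1 counts and CYP2C18 17, 42, 21 and 15 counts in the same order.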

How the data were processed

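RNA of liver slices was sequenced as QuantSeq 3′ libraries. The authors deposited raw counts per gene, made after trimming (Trimmomatic 0.39) and alignment to the ARS-UCD1.2 assembly by STAR 2.7.1. The methods name StringTie 2.0, whereas the deposited headers carry the name of the STAR table of reads per gene. Whether the counting used strand is not stated there, and overlapping genes may share counts. Tallies of reads outside single genes (43.0 to 69.9% of reads) were left out.

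Genes whose count passed 4 in any of the 12 libraries were normalized by TMM and tested with edgeR 4.0.16 (glmQLFit with legacy=TRUE, glmQLFTest) in R 4.3.3. All 4 groups shared 1 fit with treatment as the only term, and p-values were adjusted by Benjamini-Hochberg over 19824 genes. DESeq2 1.42.0 was an alternative. Floors cover counting error only. The numbers pair libraries because they name the same animal. Deviations from group means correlated with a median r of 0.111 (-0.0267 to 0.284, 18 pairs of libraries) within cows and -0.0694 between cows. Deviations within a group cancel, so that the value between cows largely follows from that within cows and is no separate comparison.

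Genes were named by rule: members called for any agonist with or without the block, the 15 with the highest mean CPM, the highest of each family, CYP4A, CYP7A1, CYP8B1, CYP27A1 and CYP51A1. Of partners and regulators, those called were named, with POR, PPARA, NR1I2, NR1I3, AHR and NR1H4. DESeq2 calls of CYP2D14 and CYB5A and ratios to hepatocyte markers were chosen after values were seen. The members and lists were chosen with earlier results of these data known. Of the 35 symbols, 28 are current in RefSeq (ARS-UCD2.0), 6 are synonyms there (3 of them of more than 1 gene) and 1 (CYP2J2) was not matched. The fit was tested on simulated data.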

Additional observations from a re-analysis of the deposited data

Results flagged for a closer look

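Low counts of 2 CYP genes appeared in the libraries of cow 574, the removed animal of low RNA integrity, which entered no test. CYP19A1, the aromatase gene, had 9, 9, 7 and 5 counts in control and with the PPARα, PPARδ and PPARγ agonists of this cow, and 0 counts in the 12 libraries of the other cows. CYP4A22 had 4 counts in the PPARδ agonist library of cow 574, above the 3 counts that a floor allows, and 0 in its control.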

How the results depend on the processing

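CYP3A4 kept its direction under all 30 alternatives for each agonist and its call under 27, 27 and 25 of them for the PPARα, PPARδ and PPARγ agonists. The calls moved more. The cow as a block (replicate block) gave 4 members for the PPARδ agonist and 8 for the PPARγ agonist, and 1, 1 and 2 for PPARγ against PPARα, PPARγ against PPARδ and PPARδ against PPARα. DESeq2 called 1, 3 and 2 members for the PPARα, PPARδ and PPARγ agonists and 1 for PPARδ against PPARα. Of all genes it called 1.64, 2.68, 1.92 and 0.666%. With the block it called 6 each for the PPARδ and PPARγ agonists, 1 for PPARγ against PPARδ and 2 for PPARδ against PPARα. CYP21 was among these blocked DESeq2 calls for each agonist. It had 0 counts in control and 5, 2 and 13 counts over the agonist libraries, through which it passed the filter. The filterByExpr filter and the fit with all 16 libraries called 0 for each agonist in edgeR. At an unadjusted p under 0.05 the former had 4, 4 and 6 members and the latter 3, 3 and 4, without the share of all genes at that p beside them. With all 16 libraries and the block the PPARδ and PPARγ agonists had 2 and 3 calls, and the medians without the block were 0.069 and 0.41. Without a filter on low counts the calls were 3 for each of these agonists, 1 for PPARγ against PPARα and 2 for PPARδ against PPARα. An adjusted p under 0.05 left 1 call for the PPARα agonist; with the block, the PPARδ and PPARγ agonists kept 4 and 5 under 0.1 and 4 and 4 under 0.05 (chosen after seeing the data). Fitting only the 6 libraries of control and PPARγ agonist gave 8 calls.

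Without the 3 marked libraries the PPARδ and PPARγ agonists had 2 and 4 calls, and 3 and 5 with the block. The share of all genes called is not set beside them, so that they are a description. Calls against the PPARα agonist are not given, since only 1 of its libraries was left. The median for the PPARα agonist became -0.51 there. In this setting, in which the PPARα agonist rests on cow 576, the direction turned for CYP26A1 (-1.70, and -1.30 with the block) and CYP2C18 (-2.40 and -2.38) with the PPARα agonist, for CYP26A1 between PPARγ and PPARα (2.78 and 3.06) and PPARδ and PPARα (0.93) and for CYP2C87 between PPARδ and PPARα (2.10). Leaving out RN18S1 moved the CYP share of gene counts to 0.0794, 0.173, 0.146 and 0.178% in control and with the PPARα, PPARδ and PPARγ agonists.

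Leaving out 1 library or 1 cow, the calls ranged from 0 to 11, 0 to 5 and 0 to 5 for the PPARα, PPARδ and PPARγ agonists, and with the block from 1 to 11, 1 to 7 and 2 to 8. The median ranged from 0.067 to 1.07 for the PPARδ agonist and from 0.54 to 1.31 for the PPARγ agonist, and with the block from 0.074 (0.12 without the control of cow 581) to 0.88 and from 0.34 to 1.23 (1.17 without cow 567). Calls between agonists ranged from 0 to 1 (PPARγ against PPARα), 0 to 2 (PPARγ against PPARδ) and 0 to 3 (PPARδ against PPARα). The cause of these shifts was not tested, and the share of all genes called in each refit is not set beside the counts. The controls held 1165 to 2569 CYP counts each, which limits the low members.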
